A study of Oryctolagus cuniculus with 17 samples.

Results

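The genes of the vascular endothelial growth factor (VEGF) ligands and their receptors were followed in the lungs of preterm rabbit pups kept in high oxygen. The rule took the table entries named VEGFA, VEGFB, VEGFC, VEGFD, PGF, FLT1, KDR, FLT4, NRP1 or NRP2. Of these 10 genes, 9 have an entry among the 13827 of the count table, 4 ligands and 5 receptors, and all 9 passed the filter on low counts with the 13142 genes tested; VEGFB has no entry and was not analysed here. The pups were New Zealand White rabbits born by caesarean section on day 28 of gestation and fed a milk replacer by tube in incubators. Hyperoxia (HT) was 95% O2 and normoxia (NT) was 21% O2, and total RNA came from homogenates of the whole right lung on postnatal day 3, 5 or 7. The groups held 3 samples each (HT3, HT7, NT3, NT5, NT7) except HT5 with 2, which gives 17 samples. All groups share the preterm birth, the feeding and the incubator, so a term or unfed lung is not among them, and a homogenate mixes every cell type of the organ.

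VEGFA, made in the lung mainly by epithelial cells that line the airspaces, binds the receptor KDR (VEGFR2) on endothelial cells and drives their survival, division and sprouting. FLT1 (VEGFR1) binds VEGFA more tightly but signals weakly, is also made as a secreted form that traps the ligand, and is the only tyrosine kinase receptor for placental growth factor (PGF) and VEGFB. VEGFC and VEGFD act on FLT4 (VEGFR3), the receptor of lymphatic and some blood vessel endothelium, and the neuropilins NRP1 and NRP2 are co-receptors that also bind class 3 semaphorins.

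Hyperoxia split the family. On day 7 the ligands VEGFA, VEGFC and VEGFD and the receptors KDR, FLT4 and NRP1 were lower than in normoxia, between 2.11-fold for NRP1 and 6.07-fold for KDR. PGF was 4.32-fold and FLT1 2.14-fold higher, and NRP2 passed no test on any day. The higher PGF and FLT1 levels were seen in all 8 hyperoxia samples, day 3 included, each of which lay above all 9 normoxia samples. How many of all genes had hyperoxia samples above or below all 9 normoxia samples was not counted. Within single days the conditions did not overlap in 26.7%, 55.7% and 54.5% of all genes on days 3, 5 and 7. VEGFA, KDR and FLT4 lay below normoxia in every sample of each day. By edgeR's quasi-likelihood test, 0 of the 9 genes were called on day 3 (0.205% of all genes tested), 6 on day 5 (16.2%) and 8 on day 7 (33.6%), and the Wald test of DESeq2 called 1, 7 and 8 of them, with 1.64%, 24.4% and 37.4% of all genes.

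**Figure D1:**
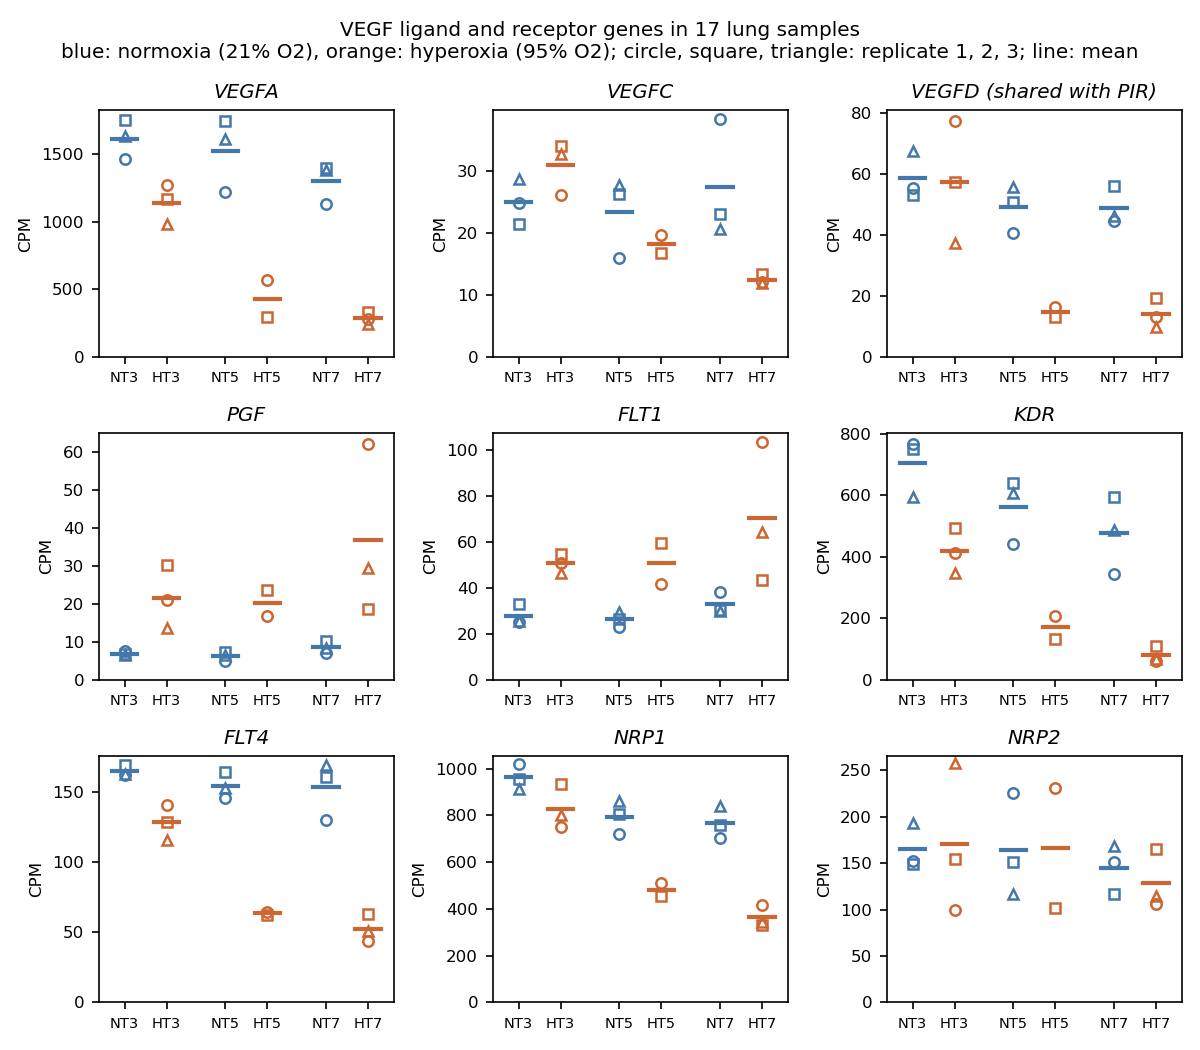
Reads of each gene scaled to library size (CPM, linear axis from 0) of the 9 genes in each of the 17 samples, by group; symbols mark replicates 1 to 3 and lines the group mean. VEGFA in HT7 lies between 238 and 334 CPM against 1130.2 to 1395 CPM in NT7, whereas PGF in hyperoxia lies above all normoxia samples on every day.

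Sample totals ran from 13123731 to 18111086 counts when no locus was counted more than once, and the TMM scaling factors of edgeR lay between 0.958 and 1.05. The lowest count behind any value of the family was 80 (PGF in NT5) and the highest 34695 (VEGFA in NT3). As a check for libraries listed more than once, pairs within a group were compared over loci, and none agreed within sampling noise (chi-square per degree of freedom of 16.1 to 88.5). Defining lung markers were present, as SFTPC and AGER, of alveolar type 2 and type 1 cells, averaged 13.04 and 11.64 log2 CPM, the latter joint with PBX2, which is counted with AGER as 1 locus. All values below are CPM (the count of a gene for each 1000000 counts of the sample after TMM scaling), log2 fold changes of hyperoxia over normoxia with their standard error (SE), and p-values of edgeR's quasi-likelihood test adjusted by Benjamini-Hochberg over all 13142 genes. A gene was called at an adjusted p under 0.01. The study's rule for differential expression, which rests on the Wald test of DESeq2, also asks for a log2 fold change beyond 2. Here its cutoffs were applied to the values of edgeR. CPM are not per length, so levels are compared between samples of one gene and not between genes.

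The 9 genes lie at separate loci of the OryCun2.0 build. The ligand genes are VEGFA at chr12:33200062-33213632 on the plus strand, VEGFC at chr2:54161593-54278169 on the minus strand, VEGFD at chrX:1211431-1243195 on the minus strand and PGF at chr20:30172447-30183094 on the plus strand. KDR lies at chr15:93608315-93652418 and NRP2 at chr7:146460006-146574055, both on the plus strand. FLT1, FLT4 and NRP1 sit on unplaced scaffolds, FLT1 at GL018735:1362431-1559789 (minus strand), FLT4 at GL018730:2016642-2044293 (minus strand) and NRP1 at GL018724:2539368-2670754 (plus strand). The counts cover a whole locus, so splice forms, the secreted form of FLT1 among them, cannot be told apart. The VEGFD locus was counted together with its neighbour PIR (chrX:1244557-1332629), which encodes pirin, an iron-binding nuclear protein, and both have identical counts. Every VEGFD value below is therefore that of VEGFD and PIR together.

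VEGFA had CPM of 1463, 1748 and 1632 in NT3 and of 1273, 1166 and 978 in HT3. On day 5 the CPM were 1221, 1742 and 1613 in NT5 and 568 and 290.0 in HT5. On day 7 they were 1130.2, 1395 and 1379 in NT7 and 277, 334 and 238 in HT7. The hyperoxia samples were below the normoxia samples of the same day on all 3 days, and 6 of the 8 were below all 9 normoxia samples. On day 3 the difference was not called (log2FC -0.50 ± 0.21 SE, adjusted p = 0.270). VEGFA fell on day 5 (log2FC -1.83 ± 0.25, adjusted p = 0.000254) and on day 7 (log2FC -2.20 ± 0.22, adjusted p = 4.95e-06), to 3.55-fold and 4.60-fold lower levels. In the order of group means NT3 came first, then NT5, NT7, HT3, HT5 and HT7, and of these neighbours HT3 and HT5 alone had samples that did not overlap. In homogenates, fewer cells of a type and less RNA per cell cannot be told apart, here and for each gene that follows. The summed CPM of 11 marker genes of alveolar type 1 cells moved with VEGFA, from 8849 to 9989 in NT7 against 3415 to 4194 in HT7. On day 7, 6 of the 11 were called lower and 1 higher, where 16.9% of all genes were called lower and 16.7% higher. Their part in the VEGFA result was not tested. None of the 11 was at 0 in any group, and AQP5, a defining marker of these cells, has no entry.

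PGF, the ligand of FLT1 alone among the kinase receptors, went the other way. Its CPM were 7.39, 6.60 and 6.54 in NT3 and 21.0, 30.3 and 13.6 in HT3. In NT5 they were 4.85, 7.19 and 6.41, and in HT5 16.7 and 23.6. In NT7 they were 7.04, 10.3 and 8.22, and in HT7 62.1, 18.7 and 29.4. The 2 conditions did not overlap on any day, and HT7 replicate 1 was the highest of the 17 samples. PGF had an adjusted p of 0.0492 on day 3 (log2FC 1.66 ± 0.37) and was not called by edgeR, while DESeq2 gave 1.66 and an adjusted p of 0.00106. Same-numbered samples of that day deviated together across all genes, though by a small amount (correlations of 0.131 to 0.199), and the fit with the replicate number as a block gave 1.59 ± 0.37 and an adjusted p of 0.106. PGF rose on day 5 (1.71 ± 0.41, adjusted p = 0.00609) and day 7 (2.11 ± 0.38, adjusted p = 0.000380). With the replicate block the day 5 value was 1.75 ± 0.46 and not called (adjusted p = 0.0248). Leaving out single samples of day 5 ended the call in 4 of 5 cases, with adjusted p of 0.0877 without HT5 replicate 2 and of 0.0218, 0.0144 and 0.0201 without NT5 replicates 1, 2 and 3. The day 7 call was kept whichever of the 6 samples was left out, with log2FC from 1.5 without HT7 replicate 1 to 2.44.

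VEGFC, a lymphatic growth factor, changed late. NT3 had 24.8, 21.5 and 28.7 CPM and HT3 26.2, 34.0 and 32.7 CPM. NT5 had 15.995, 26.2 and 27.7 CPM and HT5 19.6 and 16.7 CPM. NT7 had 38.5, 23.0 and 20.6 CPM and HT7 12.1, 13.4 and 11.8 CPM. The samples overlapped on days 3 and 5, and on day 7 hyperoxia lay below normoxia. The log2FC was 0.31 ± 0.23 on day 3 (adjusted p = 0.562) and -0.36 ± 0.27 on day 5 (adjusted p = 0.315). On day 7 VEGFC fell 2.20-fold (log2FC -1.14 ± 0.24, adjusted p = 0.00131), and with a fit to the 6 samples of that day alone the adjusted p was 0.0101.

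The VEGFD and PIR locus was close to normoxia on day 3 and lower from day 5 on. NT3 had 55.2, 53.1 and 67.4 CPM and HT3 77.4, 57.2 and 37.3 CPM, which overlap. NT5 had 40.5, 50.8 and 55.6 CPM against 16.4 and 12.9 CPM in HT5. NT7 had 44.4, 55.9 and 46.0 CPM against 13.0, 19.4 and 9.58 CPM in HT7. The 3 HT3 samples thus spanned the whole range of NT3 on both sides, while the 5 later hyperoxia samples were all below the lowest normoxia sample. The locus fell 3.35-fold on day 5 (log2FC -1.74 ± 0.31, adjusted p = 0.00105) and 3.49-fold on day 7 (-1.80 ± 0.27, adjusted p = 9.12e-05), against -0.03 ± 0.25 on day 3 (adjusted p = 0.971). Without HT5 replicate 2 the day 5 value was -1.59 and the adjusted p 0.0311.

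KDR, the main signalling receptor of VEGFA, had the largest fold change of the 9 genes on day 7. Its CPM were 767, 750 and 595 in NT3 and 413, 494 and 346 in HT3. On day 5 they were 441, 640.4 and 608 in NT5 and 207 and 133 in HT5. On day 7 they were 344, 595 and 487 in NT7 and 59.1, 108 and 68.2 in HT7. Hyperoxia lay below normoxia on every day, and the HT5 and HT7 samples did not overlap with each other either. The log2FC on day 3 was -0.75 ± 0.25 and not called (adjusted p = 0.166). KDR fell 3.31-fold on day 5 (log2FC -1.73 ± 0.30, adjusted p = 0.000939) and 6.07-fold on day 7 (-2.60 ± 0.27, adjusted p = 5.71e-06). Without HT5 replicate 2 the day 5 value was -1.46 and the adjusted p 0.0308.

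FLT1, the decoy-like receptor of VEGFA and the receptor of PGF, was higher in hyperoxia. Its CPM were 24.9, 32.9 and 25.5 in NT3 and 50.5, 54.6 and 46.2 in HT3. They were 22.8, 26.2 and 29.4 in NT5 and 41.7 and 59.2 in HT5. They were 38.1, 30.2 and 29.8 in NT7 and 103, 43.2 and 64.0 in HT7. Conditions did not overlap on any day, and the highest normoxia sample of all (38.1 CPM) was below the lowest hyperoxia sample (41.7 CPM). The log2FC was 0.86 ± 0.25 on day 3 (adjusted p = 0.108) and 0.95 ± 0.27 on day 5 (adjusted p = 0.0159), neither of them called by edgeR. DESeq2 called the day 5 value (0.96, adjusted p = 0.00460), as did edgeR with the replicate block (1.03, adjusted p = 0.00949). On day 7 FLT1 rose (1.10 ± 0.25, adjusted p = 0.00207). That call was lost without HT7 replicate 1 (log2FC 0.71, adjusted p = 0.0119), without NT7 replicate 2 (1.05, adjusted p = 0.0114) or 3 (1.04, adjusted p = 0.0111), and with the 6 samples of day 7 alone (1.10, adjusted p = 0.0182). Macrophages also make FLT1, and the summed CPM of 10 macrophage markers tested, of 12 listed, was above normoxia on each day as well, with 1103 to 1566 in HT3 against 987 to 1102 in NT3, 1798 to 2038 in HT5 against 907 to 1772 in NT5 and 2011 to 2643 in HT7 against 1225 to 1476 in NT7. The sum follows its most abundant genes, and CD68 averaged 9.84 log2 CPM. The median log2FC of the 10 was 0.20, 0.11 and 0.098 on the 3 days. CD68, a lysosomal protein gene, was called higher on days 5 and 7 (0.86 and 1.21), MARCO, a scavenger receptor, was called lower on day 7 (-2.19), and the other 8 were not called. Of all genes, 16.2% were called on day 5 and 33.6% on day 7. None of the 10 was at 0 in any group, and their part in the FLT1 and PGF results was not tested.

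FLT4, the receptor of VEGFC and VEGFD, had the smallest adjusted p of the family on days 5 and 7. Its CPM were 162, 169 and 163 in NT3 and 141, 128 and 116 in HT3. They were 145, 164 and 152 in NT5 and 64.6 and 62.1 in HT5. They were 129.9, 160.4 and 169 in NT7 and 44.0, 62.8 and 50.9 in HT7. Hyperoxia was below normoxia on every day, and 7 of the 8 hyperoxia samples were below all 9 normoxia samples. FLT4 fell 2.43-fold on day 5 (log2FC -1.28 ± 0.15, adjusted p = 8.24e-05) and 2.91-fold on day 7 (-1.54 ± 0.13, adjusted p = 1.71e-06), after a log2FC of -0.36 ± 0.13 on day 3 (adjusted p = 0.193).

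The 2 neuropilins differed. NRP1, the co-receptor of KDR, had 1019, 956 and 912 CPM in NT3 and 748, 935 and 802 CPM in HT3. It had 719, 804 and 861 CPM in NT5 and 509 and 453 CPM in HT5. It had 705, 757 and 840.1 CPM in NT7 and 417, 332 and 344 CPM in HT7. The samples overlapped on day 3 and hyperoxia lay below normoxia on days 5 and 7. NRP1 fell 1.65-fold on day 5 (log2FC -0.72 ± 0.14, adjusted p = 0.00151) and 2.11-fold on day 7 (-1.07 ± 0.12, adjusted p = 9.95e-06), and on day 3 the log2FC was -0.22 ± 0.12 (adjusted p = 0.407). With the replicate block the day 5 value was -0.66 ± 0.17 and not called (adjusted p = 0.0217). Without HT5 replicate 2 the day 5 value was -0.66 and the adjusted p 0.0314.

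NRP2, the co-receptor of FLT4, had 152, 149 and 193 CPM in NT3 and 99.8, 154 and 258 CPM in HT3. It had 225, 152 and 117 CPM in NT5 and 231 and 102 CPM in HT5. It had 151, 117 and 168 CPM in NT7 and 106, 165 and 115 CPM in HT7. The samples overlapped on all 3 days and all 6 groups overlapped with their neighbours in the order of means. The log2FC were 0.05 ± 0.34, 0.01 ± 0.39 and -0.18 ± 0.35 on days 3, 5 and 7 (adjusted p = 0.968, 0.985 and 0.703). The 95% confidence interval of the day 7 value ran from -0.91 to 0.56, which leaves changes of NRP2 within these bounds open.

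**Figure D2:**
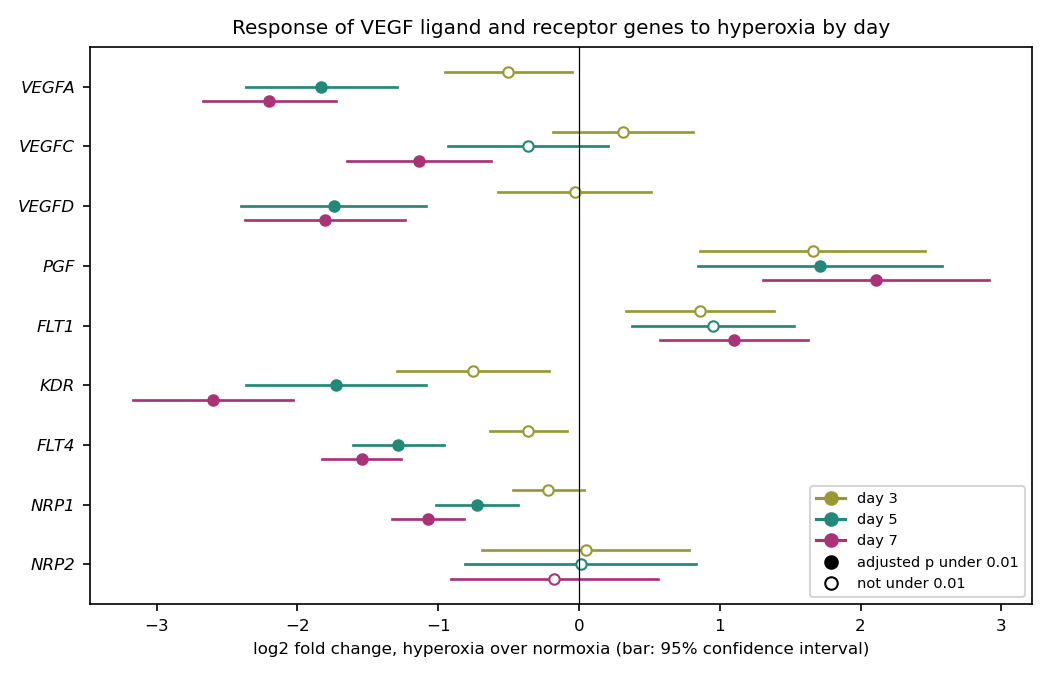
Log2 fold change of hyperoxia over normoxia for each of the 9 genes on days 3, 5 and 7, with 95% confidence intervals from the edgeR fit; filled points have an adjusted p under 0.01. VEGFA runs from -0.50 to -2.20 and KDR from -0.75 to -2.60 between days 3 and 7, whereas PGF stays between 1.66 and 2.11 and NRP2 near 0.

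Counted together, none of the 9 genes was called on day 3, when 0.205% of all genes tested were; 5 of the 9 had an unadjusted p under 0.05, as did 15.3% of all genes. In 5 of the 9 the conditions did not overlap on day 3, against 26.7% of all genes, and the 1 gene that DESeq2 called, PGF, stood among 1.64% of all genes. On day 5, 6 of the 9 were called, 1 higher and 5 lower, against 16.2% of all genes, of which 8.56% higher and 7.62% lower. In 7 of the 9 the conditions did not overlap that day (55.7% of all genes), and none met the study's rule with its fold minimum (1.58% of all genes). DESeq2 called 7 of the 9 on day 5, FLT1 in addition, where it called 24.4% of all genes. The day 5 calls rest on the spread shared by all groups, since with the 5 samples of that day alone none of the 9 was called and the smallest adjusted p was 0.0137, for FLT4. Leaving out HT5 replicate 2 leaves a lone sample in that group. The day 5 values of VEGFD, PGF, KDR and NRP1 were then no longer called, with log2FC of -1.59, 1.42, -1.46 and -0.66.

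On day 7, 8 of the 9 were called, 2 higher and 6 lower, where 33.6% of all genes were called, 16.7% higher and 16.9% lower. The conditions did not overlap in 8 of the 9, against 54.5% of all genes. By the values of edgeR, VEGFA, PGF and KDR met the cutoffs of the study's rule with its fold minimum, which 4.59% of all genes did. The median log2FC of the 9 genes was -0.03 on day 3, -0.72 on day 5 and -1.14 on day 7, beside medians of all genes of 0.00079, -0.02 and -0.01.

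Whether the response differed between days was tested as the hyperoxia effect on day 7 minus that on day 3. It was lower for 6 of the 9 genes, against 7.27% of all genes called in this test. KDR had the largest shift (-1.85 ± 0.36 SE, adjusted p = 0.00397), followed by VEGFD with PIR (-1.77 ± 0.37, adjusted p = 0.00550), VEGFA (-1.70 ± 0.30, adjusted p = 0.00253) and VEGFC (-1.45 ± 0.33, adjusted p = 0.00899). FLT4 shifted by -1.18 ± 0.18 (adjusted p = 0.00148) and NRP1 by -0.86 ± 0.17 (adjusted p = 0.00412). PGF and FLT1 had shifts of 0.45 ± 0.52 and 0.24 ± 0.35 (adjusted p = 0.571 and 0.662), with 95% confidence intervals from -0.66 to 1.56 and from -0.50 to 0.98. VEGFA and FLT4 kept this call whichever of the 12 samples of these days was left out. KDR and NRP1 lost it in 6 of the 12, VEGFD in 9 and VEGFC in 10, and the highest adjusted p among them was 0.0251. With the replicate number as a block, KDR and FLT4 were the 2 genes called (4.57% of all genes), and the adjusted p was 0.0124 for VEGFA, 0.0119 for VEGFD, 0.0198 for VEGFC and 0.0167 for NRP1; the numbers met the check for pairing on day 3 but not on day 7. With day as a number over all 17 samples, 5 of the 9 genes had a slope in hyperoxia below that in normoxia (6.54% of all genes called), VEGFA, VEGFC, KDR, FLT4 and NRP1, from -0.21 log2 units per day for NRP1 to -0.46 for KDR. The block left KDR and FLT4 called here too (5.49% of all genes), with adjusted p of 0.0114, 0.0150 and 0.0118 for VEGFA, VEGFC and NRP1.

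Within each condition, the same samples give the change from day 3 to day 7. In hyperoxia 6 of the 9 genes fell from HT3 to HT7, where 29.4% of all genes were called in either direction. KDR fell 5.33-fold (log2FC -2.41 ± 0.27, adjusted p = 1.73e-05), VEGFD with PIR 4.10-fold (-2.04 ± 0.27, adjusted p = 5.81e-05), VEGFA 4.02-fold (-2.01 ± 0.22, adjusted p = 1.71e-05), VEGFC 2.49-fold, FLT4 2.44-fold and NRP1 2.27-fold. PGF had a log2FC of 0.76 ± 0.36 and FLT1 of 0.47 ± 0.24 (adjusted p = 0.0964 and 0.126). When single samples were left out, PGF ranged from 0.15 to 1.09 and FLT1 from 0.089 to 0.73. In normoxia none of the 9 genes was called from NT3 to NT7, nor was any other gene by edgeR (0% of all genes), with 824 genes (6.27%) at an unadjusted p under 0.05 and 15 called by DESeq2. KDR (log2FC -0.57 ± 0.25, unadjusted p = 0.0403) and NRP1 (-0.33 ± 0.12, unadjusted p = 0.0149) were the 2 of the 9 under 0.05 without adjustment, and DESeq2 called none of them.

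The balance of the 2 VEGFA receptors and of the 2 FLT1 ligands was followed as the difference of their log2 CPM within each sample, in which scaling of the sample cancels. These differences are between genes without a length correction, so their change between groups is given and not their level. FLT1 relative to KDR was 3.09-fold higher in hyperoxia on day 3, 6.38-fold on day 5 and 12.4-fold on day 7 (log2 1.63, 2.67 and 3.63). PGF relative to VEGFA was 4.22-fold, 12.0-fold and 17.6-fold higher (log2 2.08, 3.58 and 4.14). The day 5 value of the latter rests on 2 samples that lay apart, and it was 19.9-fold without HT5 replicate 1 and 7.22-fold without HT5 replicate 2. Hyperoxia samples lay above normoxia samples in both differences on all 3 days. The spread within hyperoxia was wide on days 5 and 7, with an SD of 0.81 and 1.07 for FLT1 minus KDR and of 1.04 and 1.0 for PGF minus VEGFA (log2, n = 2 and 3), and HT7 replicate 1 was highest of its group in both. VEGFD (with PIR) relative to VEGFC was 2.66-fold lower in hyperoxia on day 5, with no overlap (log2 -1.41), and differed by -0.39 and -0.77 on days 3 and 7, with overlap. NRP2 relative to NRP1 differed by 0.17, 0.67 and 0.89 on the 3 days, with overlap on days 3 and 5 and none on day 7.

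**Figure D3:**
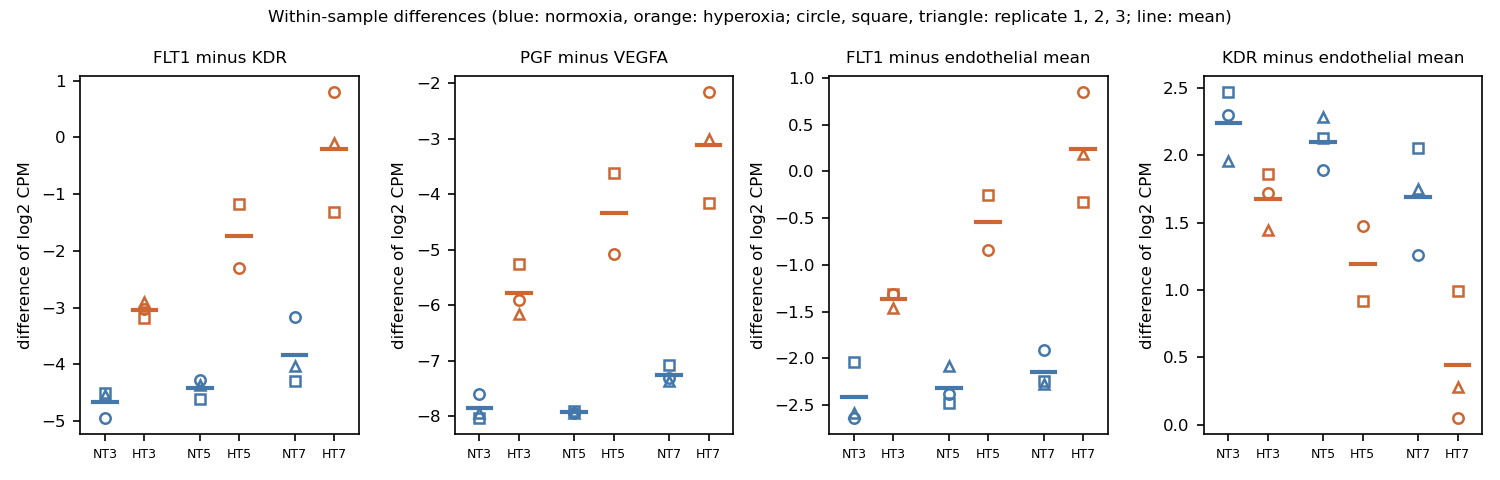
Difference of log2 CPM within each of the 17 samples for FLT1 minus KDR, PGF minus VEGFA, and FLT1 or KDR minus the mean of 19 general endothelial marker genes; symbols mark replicates and lines the group mean. Both FLT1 panels and the PGF panel have hyperoxia above normoxia on every day, by 1.63 to 3.63 log2 units for FLT1 minus KDR, and the KDR panel has it below.

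All 5 receptors are made by endothelial cells. Markers of those cells were lower in hyperoxia, as were KDR, FLT4 and NRP1, whereas FLT1 was higher and NRP2 was not called. EdgeR called 0.205%, 16.2% and 33.6% of all genes on days 3, 5 and 7 in the main fit. The counts of this and the following lists from that fit stand beside these shares. List counts at an unadjusted p under 0.05 stand beside 15.3%, 43.3% and 53.9% of all genes. Fits without a sample called 0.0152% to 0.175% on day 3, and 24.8% to 36.6% on day 7. Without an NT5 sample, 9.03% to 13.5% were called on day 5. The replicate block called 0.0152%, 7.36% and 30.9%, and the samples of day 7 alone 23.5%. Fits without an HT5 sample leave a lone sample in that group, so their list counts are not comparable with 16.2%. Of 19 general endothelial marker genes tested, 1 was called lower on day 3 (TIE1), 10 lower and 1 higher on day 5, and 16 lower and none higher on day 7. With the replicate block, or without any single sample of day 3 but HT3 replicate 3, 0 of the 19 were called on day 3, and without HT5 replicate 2, 5 were on day 5. TEK, the angiopoietin receptor, fell by 2.79 and RAMP2, an adrenomedullin co-receptor, by 2.37 on the log2 scale on day 7, while PECAM1 (-0.05 ± 0.22), S1PR1 (0.29 ± 0.22) and VWF (0.29 ± 0.25) were not called on that day. The highest log2FC among the 19 was 1.10 on day 3 and 1.14 on day 5. Their summed CPM ranged from 4220 to 4436 in NT7 and from 1754 to 2429 in HT7, with no overlap, whereas it overlapped on day 3 (4034 to 4684 in NT3, 3885 to 4671 in HT3). CLDN5, ESAM and 3 further markers of the list have no entry, and none of the 19 was at 0 in any group. The part of the endothelial content of the samples in the receptor results was not tested.

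Set against the mean log2 CPM of these 19 markers in the same sample, the receptors took different places. The marker mean itself differed by -0.19, -0.84 and -1.37 log2 units (hyperoxia minus normoxia) on days 3, 5 and 7. FLT1 relative to it was 2.08-fold, 3.41-fold and 5.21-fold higher, and hyperoxia lay above normoxia on each day. KDR relative to it was 1.48-fold, 1.87-fold and 2.37-fold lower, with hyperoxia below normoxia on each day. FLT4 relative to the markers differed by -0.17, -0.44 and -0.18 and overlapped on days 3 and 7. NRP1, which many cell types also make, differed by -0.03, 0.12 and 0.29 and overlapped on days 3 and 5. These differences are descriptions over 2 or 3 samples a group and were given no test.

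**Figure D4:**
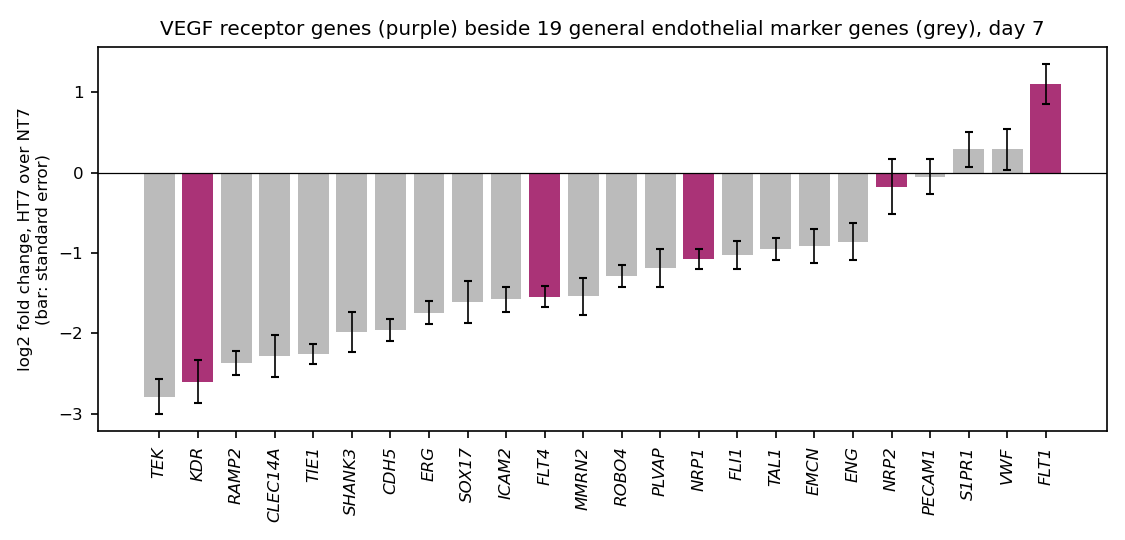
Log2 fold change of HT7 over NT7 (bars, with SE) for the 5 receptor genes and 19 general endothelial marker genes, ordered by value. KDR (-2.60) lies beside TEK (-2.79) at the low end, FLT4 (-1.54) and NRP1 (-1.07) among the other markers, and FLT1 (1.10) at the high end, above every marker.

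Markers of lung capillary endothelium, the vessel bed in which KDR is strong, were lower too. Of 13 tested, none was called on day 3 (5 at an unadjusted p under 0.05), 8 were called lower and none higher on day 5, and 10 lower and 2 higher on day 7; without HT5 replicate 2, 2 were called on day 5. APLNR, the apelin receptor, fell by 3.76 and PRX, periaxin, fell by 3.23 on the log2 scale, and LPL and FIBIN rose by 1.39 and 1.48. Of 9 lymphatic markers, 1 was called on day 7, LYVE1 (log2FC -0.76 ± 0.20, adjusted p = 0.00605), and none on days 3 and 5 by edgeR (3 and 5 at an unadjusted p under 0.05), while DESeq2 called 1 on day 3, none on day 5 and 1 on day 7. On day 3 the LYVE1 value had the opposite sign (0.93 ± 0.20, adjusted p = 0.0408), as had that of MMRN1 (0.91 ± 0.31, adjusted p = 0.180). The summed CPM of the list was 1988 to 2367 in HT3 against 1244 to 1695 in NT3, without overlap. Such a sum follows its most abundant genes, and LYVE1 averaged 9.81 log2 CPM. The median log2FC of the 9 markers on day 3 was -0.07, with a range from -0.40 to 0.93. Values that were not called reached -1.88 ± 0.86 on day 5 and -1.65 ± 0.68 on day 7 for CLDN11, and -1.43 ± 0.50 and -1.16 ± 0.43 for STAB2. Whether this list differed from the capillary list was not tested. The LYVE1 call was lost in 5 of the 6 fits without a sample of day 7, all but that without NT7 replicate 2. PROX1, which defines lymphatic endothelium, had a log2FC of -0.39 ± 0.35 on day 7 (adjusted p = 0.370).

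Genes that process VEGFC and VEGFD or mark lymphatic vessels were followed as a list of 14, of which 13 were tested. On days 3, 5 and 7, 0, 0 and 1 were called higher and 0, 1 and 5 lower, which is 7.69% of the list on day 5 and 46.2% on day 7. On day 3, 4 had an unadjusted p under 0.05, and the median log2FC on day 7 was -0.36. CCBE1, the scaffold on which VEGFC is cleaved, fell by 1.02, the protease gene ADAMTS3 by 1.01 and the proprotein convertase gene PCSK5 by 1.14 on the log2 scale. ADAMTS14, a related protease gene, rose by 0.61 (adjusted p = 0.00527). Without HT7 replicate 1 or NT7 replicate 2, 3 genes of the list were called on day 7, and without HT7 replicate 3 or NT7 replicate 3, 2 were; without HT5 replicate 2, or any of the NT5 replicates, 0 were on day 5. With the 6 samples of day 7 alone, 3 were called on that day.

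A list of semaphorins and plexins held 13 tested genes, made up of 6 class 3 semaphorins, which share the neuropilins with the VEGFs, 6 plexins and the class 4 semaphorin SEMA4A. None was called on day 3 (4 at an unadjusted p under 0.05), 1 was called higher and 4 lower on day 5 (38.5% of the list), and 1 higher and 6 lower on day 7 (53.8%), with a median log2FC of -1.19. On day 5, 2 were called without HT5 replicate 2. SEMA3G, a semaphorin of arterial endothelium, fell by 2.69 on day 5 and by 2.99 on day 7 on the log2 scale. PLXND1, an endothelial semaphorin receptor, fell by 1.33 and 1.59, and PLXNA2 rose by 1.24 and 1.002. SEMA3A, SEMA3B, SEMA3C and SEMA3D were also lower on day 7, between -1.19 and -1.54, and SEMA3F (-0.40, adjusted p = 0.0246) and SEMA4A (-1.23, adjusted p = 0.0108) were not called.

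Of 26 signalling genes tested downstream of the receptors, none was called on day 3 (3 at an unadjusted p under 0.05), 2 were called higher and 3 lower on day 5, and 3 higher and 9 lower on day 7. That is 19.2% of the list on day 5 and 46.2% on day 7, where 16.2% and 33.6% of all genes were called, so the day 5 count lies near the share of the whole table. The median log2FC on day 7 was -0.27. On day 5, 0 were called without HT5 replicate 2, and without NT5 replicate 2 or 3, 1 and 2 were. PTPRB, the endothelial phosphatase that holds KDR and TEK in check, fell by 2.73 on the log2 scale (adjusted p = 8.10e-06), and NOS3, endothelial nitric oxide synthase, by 1.49 (adjusted p = 0.00541). PIK3R1, a subunit of phosphoinositide 3-kinase, fell by 1.36 and PLCG1, the phospholipase that binds KDR, by 0.51. SHB, an adaptor of KDR, rose by 0.97 and the kinase MAP2K1 by 0.87.

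Genes that VEGF is known to induce in cultured endothelium did not move one way. Of 19 tested, 1 was called higher and none lower on day 3, 2 higher and 3 lower on day 5, and 7 higher and 5 lower on day 7, with a median log2FC of 0.56 on day 7. The share called was 26.3% on day 5 and 63.2% on day 7. Leaving out HT5 replicate 2 gave 2 calls on day 5, and without NT5 replicate 2 or 3, 3 were. ANGPT2, the context-dependent TEK antagonist, rose on all 3 days, by 2.38, 4.24 and 3.54 on the log2 scale. EGR3, an immediate early transcription factor, rose by 4.43 on day 7, and RCAN1, a calcineurin inhibitor, by 1.89. The endothelial genes DLL4, APLNR and ESM1 fell by 2.63, 3.76 and 1.12. EGR1, DUSP5, NR4A2 and PLAUR, which many stimuli and cell types also induce, rose by 3.41, 2.10, 1.84 and 2.01.

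VEGFA is a target of the hypoxia-inducible factors (HIF), which prolyl hydroxylases mark for breakdown when oxygen is high. Of 11 oxygen-sensing genes, none was called on day 3 (2 at an unadjusted p under 0.05), 1 was called lower on day 5 (9.09%), and 3 were called higher and 2 lower on day 7 (45.5%). The day 5 call was lost without HT5 replicate 2 or NT5 replicate 2 or 3, and without NT5 replicate 1 there were 2 calls. HIF1A rose by 1.21 (adjusted p = 5.01e-05), its partner ARNT by 1.35 and the hydroxylase gene EGLN3, itself a HIF target, by 1.97 on the log2 scale on day 7. EPAS1 (HIF-2alpha), strong in lung endothelium, fell by 0.92 and HIF3A by 1.57. RNA levels say nothing of HIF protein, whose amount is set mainly after translation.

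Of 20 other HIF target genes tested, 1 was called higher on day 3, 2 higher on day 5 (10%), and 8 higher and 3 lower on day 7 (55%), with a median log2FC of 0.41 on day 7. Without NT7 replicate 2 or 3, 6 were called on day 7. On day 5, 0 were called without HT5 replicate 2, 4 without HT5 replicate 1, and 1 without NT5 replicate 2 or 3. ADM, adrenomedullin, was called higher on all 3 days (log2FC 1.39, 1.21 and 1.81), and its day 3 call was lost with the replicate block, with the 6 samples of that day alone or without any 1 of the NT3 replicates. CA12, a carbonic anhydrase, rose by 4.52 and SLC2A1, the glucose transporter GLUT1, by 2.11 on day 7. The glycolytic genes LDHA, HK2 and PGK1 rose by 1.38, 1.14 and 0.93, and ANKRD37 and BNIP3L fell by 0.77 and 0.66. VEGFA was lower by 2.20 on the log2 scale in these samples, below the lowest value of the 20 (-0.77).

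**Figure D5:**
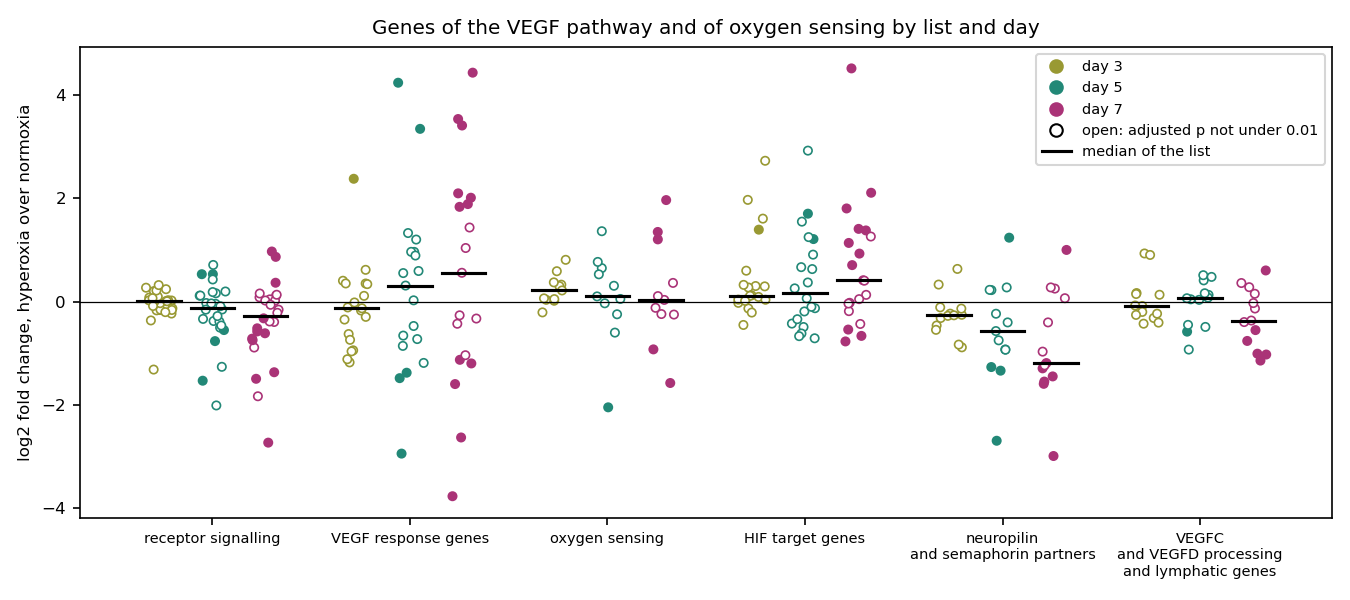
Log2 fold change of hyperoxia over normoxia for each gene of 6 lists on days 3, 5 and 7; filled points have an adjusted p under 0.01 and black lines mark list medians. The semaphorin and plexin list has its median at -1.19 on day 7, while the VEGF response and HIF target lists have medians of 0.56 and 0.41 with genes on both sides of 0.

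The genes whose pattern over the 17 samples was closest to each member were found by the root-mean-square (RMS) difference of log2 CPM, each centred on its own mean. The search covered the 11501 genes whose mean log2 CPM was 1 or more. For VEGFA the nearest was ADAMTS7 (RMS 0.18 log2 units, against an SD of 1.03 of VEGFA itself), then DIPK2B and GYPC. Near KDR lay PLEKHH2 (0.20) and COL4A3, the latter a basement membrane collagen chain of the alveolus. PGF was nearest to ADM (0.37, against an SD of 1.03 of PGF itself), then to XPC and SLC25A33 (0.42 and 0.44). FLT1 was nearest to USP24, SCNN1A and TIPARP (0.24 to 0.25) and FLT4 to TMEM8B, THRA and CDKN1B (0.14 to 0.16). NRP1 was nearest to JAM2, LAMC1 and MPRIP (0.12 to 0.14), VEGFC to ADCY4, RNF152 and AKAP11 (0.21 to 0.26), and VEGFD with PIR to TMEM204 and the joint locus of AGER and PBX2 (0.24 and 0.26). For NRP2 the nearest were GRAMD1B, RELL1 and DMGDH (0.20 to 0.26, against an SD of 0.42).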

How the data were processed

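The authors sequenced stranded poly(A) libraries as paired-end reads and deposited the untransformed counts of each locus. The submitters' processing notes name FastQC, STAR 2.7.10a and OryCun2.0, and the counting program is not given in the sources used here. Of 13313 loci, 434 carry several genes that are listed with the same counts. These counts went into edgeR 4.0.16 under R 4.3.3 (filterByExpr, TMM, quasi-likelihood fit with 6 group means over all 17 samples, prior count 0.125), with Benjamini-Hochberg adjustment. CPM divide by TMM-scaled totals of the tested entries. Alternatives were DESeq2 1.42.0, RLE scaling, no count filter, 1 entry per locus, the compared samples alone, a replicate block, other thresholds and leaving out each sample. Figures were drawn with matplotlib 3.10.9.

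The members, gene lists and alternatives were chosen with earlier results of these data known. Beside the members, the genes named are per member the 3 of nearest pattern, per list the 2 called genes with the largest rise and fall on day 7, and others chosen after their values were seen; a few that the rule names are not reported here. No source says whether the samples of a group came from separate litters, so p-values measure the spread between these samples. Samples with the same replicate number deviated together from their group means, with correlations of 0.166, 0.131 and 0.199 on day 3. On day 5 the correlations were 0.264 and 0.141. All pairs of these days passed 0.1, and on day 7 the pair at 0.0695 did not. The labels do not say what the numbers stand for.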

Additional observations from a re-analysis of the deposited data

Results flagged for a closer look

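The hyperoxia effect on day 7 differed from that on day 3 by the interaction test of edgeR for 6 genes, and each was lower on day 7. The differences (effect on day 7 minus effect on day 3, log2) were -1.85 for KDR, -1.77 for VEGFD with PIR, -1.70 for VEGFA, -1.45 for VEGFC, -1.18 for FLT4 and -0.86 for NRP1. VEGFA and FLT4 kept the call whichever of the 12 samples was left out. With the replicate number as a block, KDR and FLT4 were called and the other 4 were not, with adjusted p of 0.0119 to 0.0198.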

How the results depend on the processing

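With an adjusted p threshold of 0.05 or with DESeq2, 1 gene was called on day 3 (PGF) in place of 0. With the study's fold minimum, the counts were 0 on day 5, 3 on day 7, 0 for the difference between days 7 and 3 and 3 for HT7 against HT3. This minimum does not bear on the trend, whose values are slopes per day. With only the samples compared in the fit, 0 genes were called on day 5, where 12 genes of the whole table were. Without an NT5 sample, VEGFA, VEGFD, KDR, FLT4 and NRP1 were called on day 5, beside 9.03% to 13.5% of all genes. Leaving out a sample gave 2 to 6 calls for the difference between days 7 and 3 (2.73% to 15% of all genes). It gave 3 to 6 for the trend (2.16% to 14.9% of all genes). Same-numbered samples met the check for pairing on day 3, whose samples also enter the tests over days. On day 5 both pairs also passed 0.1 (correlations of 0.264 and 0.141). On day 7 the correlations were 0.174, 0.109 and 0.0695, and the last did not pass. With the replicate block, which called 7.36% of all genes on day 5 and 30.9% on day 7, 5 genes were called on day 5 (FLT1 gained at an adjusted p of 0.00949, PGF and NRP1 lost at 0.0248 and 0.0217) and 8 on day 7. The block left 2 calls, KDR and FLT4, both for the difference between days 7 and 3 and for the trend, and changed no call of the 9 genes on day 3. Values that changed sign were not called in any fit. NRP2 was -0.00090 on day 5 with 1 entry per locus, and -0.046 on day 3 and -0.27 on day 5 with the replicate block. When samples were left out, NRP2 ranged from -0.38 to 0.32 on day 3, from -0.70 to 0.47 on day 5, from -0.49 to 0.20 for the difference between days, from -0.12 to 0.038 for the trend and from -0.68 to 0.020 for HT7 against HT3. VEGFD ranged from -0.31 to 0.20 on day 3. PGF ranged from -0.16 to 0.77 and FLT1 from -0.15 to 0.49 for the difference between days, and from -0.045 to 0.20 and -0.038 to 0.11 for the trend, each negative only without HT7 replicate 1. From NT3 to NT7, VEGFC ranged from -0.20 to 0.30 and FLT4 from -0.18 to 0.0014. The trend of VEGFD had an adjusted p of 0.0123, and of 0.00184 with DESeq2. The cause of these changes was not tested. RLE scaling and no count filter changed no call of the 9 genes. For the gene lists, DESeq2 gave counts over 1.5 times from those of edgeR as follows, with 1.64%, 24.4% and 37.4% of all genes called by DESeq2 on days 3, 5 and 7 against 0.205%, 16.2% and 33.6% by edgeR. On day 3 it called 3 HIF targets in place of 1, 2 general endothelial markers in place of 1, and 1 capillary, 1 lymphatic, 1 neutrophil and 1 heart and skeletal muscle marker and 1 gene of the VEGFC and VEGFD processing list in place of 0. On day 5 it called 9 signalling genes in place of 5, 8 VEGF response genes in place of 5, 5 HIF targets in place of 2, 3 oxygen-sensing genes in place of 1, 8 alveolar type 1 markers in place of 5, 6 pericyte and smooth muscle markers in place of 3, 2 macrophage markers in place of 1, and 3 heart and skeletal muscle, 1 neutrophil and 1 erythroid marker in place of 0. On day 7 it called 2 alveolar type 2 markers in place of 1, 4 erythroid markers in place of 2 and 1 neutrophil marker in place of 0. With only the samples compared, 0 or 1 gene of each list was called on day 5, 0 HIF targets in place of 1 on day 3, and 3 genes of VEGFC and VEGFD processing in place of 6 and 1 neutrophil marker in place of 0 on day 7. With the replicate block, the day 5 counts were 1 for signalling, 3 for VEGF response, 1 for HIF targets, 2 for alveolar type 1, 3 for fibroblast and 1 for neutrophil markers, and 0 for oxygen sensing, macrophages and VEGFC and VEGFD processing. On day 7 the block gave 3 for VEGFC and VEGFD processing, 3 for alveolar type 2, 1 for neutrophil and 0 for heart and skeletal muscle markers.

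The day 5 results rest on 2 hyperoxia samples, and without one of them the lone sample is assumed to vary like the other groups. VEGFB, splice forms, proteins and the separate parts of VEGFD and PIR were not measured here.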

Other observations

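Markers of other cell types in the homogenates were followed as lists. Of 10 alveolar type 2 markers, none was called on days 3 and 5 by edgeR or DESeq2 (2 and 1 at an unadjusted p under 0.05) and 1 on day 7, NAPSA, an aspartic protease (log2FC -1.49). Of 13 fibroblast markers, 5 were called lower on day 5, and 5 lower and 1 higher on day 7, with NPNT, a matrix protein, at -3.52 and LUM, lumican, at 1.25. Of 13 pericyte and smooth muscle markers, 3 were called lower on day 5, and 5 lower and 1 higher on day 7, with the pericyte gene HIGD1B at -2.11 and ABCC9 at 1.29. Of 10 macrophage markers, 1 was called higher on day 5, and 1 higher (CD68, 1.21) and 1 lower (MARCO, -2.19) on day 7. Of 9 neutrophil markers, edgeR called 0 on each day, with 7, 3 and 3 at an unadjusted p under 0.05 on days 3, 5 and 7 (15.3%, 43.3% and 53.9% of all genes), and DESeq2 called 1 on each day. Their median log2FC was 1.34, 0.68 and 0.27, and their summed CPM was 1019 to 1493 in HT3 against 299 to 670.0 in NT3, without overlap, 634 to 1008 in HT5 against 157 to 719 in NT5 and 1001 to 2921 in HT7 against 851 to 1044 in NT7. On day 7, 2 of 6 erythroid markers, ALAS2 and EPB42, were called lower (-1.61 and -1.71). Of 9 heart and skeletal muscle markers, none was called on days 3 and 5 by edgeR (6 and 7 at an unadjusted p under 0.05) and 1 on day 7 (MYLPF, -0.65). Their summed CPM was 87.4 to 462 in HT3 against 111 to 147 in NT3, 60.9 to 403 in HT5 against 96.5 to 116 in NT5, and 65.2 to 76.7 in HT7 against 97.6 to 118 in NT7. The summed CPM of the alveolar type 2 list was 25731 to 28962 in HT3 against 18250 to 21197 in NT3, without overlap, and overlapped on days 5 and 7. That of the fibroblast list was lower without overlap on all 3 days, with 16180 to 18722 in HT3 against 22555 to 26278 in NT3, 10210 to 16217 in HT5 against 21181 to 21563 in NT5 and 12747 to 16997 in HT7 against 18108 to 23261 in NT7. Such sums follow their most abundant genes. The median log2FC of the 13 fibroblast markers was -0.28, -0.73 and -0.35 on the 3 days, and none was called on day 3. The pericyte and smooth muscle sum was lower without overlap on day 3 (1944 to 2263 against 2469 to 2496) and day 7 (1345 to 1508 against 1772 to 2357), and the erythroid sum on day 5 (78.4 to 88.2 against 106 to 195) and day 7 (54.8 to 76.8 against 129 to 234). Several of the counts of calls hang on single samples. The NAPSA call was lost without HT7 replicate 1 or 3 or NT7 replicate 1 or 2, with 2 alveolar type 2 markers called without HT7 replicate 2, and that of MYLPF without NT7 replicate 2. Fibroblast calls on day 5 were 1 without HT5 replicate 2, 3 without NT5 replicate 2 and 2 without NT5 replicate 3, and the macrophage call of day 5 was lost without any of these 3 samples, while 4 macrophage markers, 1 neutrophil and 1 alveolar type 2 marker were called without NT5 replicate 1. Without HT5 replicate 1, 1 heart and skeletal muscle marker was called on day 5. On day 7, 1 macrophage marker was called without HT7 replicate 1 or 3 or NT7 replicate 1, and 1 erythroid marker without HT7 replicate 1 or NT7 replicate 2, against 4 erythroid markers without NT7 replicate 3 and 1 neutrophil marker without HT7 replicate 2.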
